A study of Ciona robusta with 3 samples.

Results

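The 100 genes described here were chosen by their measured time course in single-cell RNA-seq of Ciona robusta embryos. Only cells of the cardiopharyngeal lineage with a low share of muscle transcripts were used for the choice. In these cells the summed transcripts of the genes were highest at 10 hours post fertilization (hpf), between lower values at 7 hpf and at 12 and 13 hpf. They were taken from 4370 genes that had at least 100 unique molecular identifiers (UMIs, counted transcript molecules) at 10 hpf, out of 17822 genes in the gene models. The ranking value was the ratio of the 10 hpf level to the higher of the 7 hpf and the 12 and 13 hpf levels, in UMIs scaled to a common total (counts per 1000000 UMIs, CPM) with 10 added. Because this ratio chose the members, their levels at 7, 10, 12 and 13 hpf are a description and were not tested. Levels at 11 hpf, in tail muscle cells, in cells without a sample barcode and in the CRISPR libraries were not used to choose them.

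In Ciona, an ascidian and thus a close relative of the vertebrates, a pair of founder cells on each side of the embryo divides into anterior tail muscle cells (ATMs) and cardiopharyngeal progenitors, also called trunk ventral cells (TVCs). The progenitors migrate into the trunk during a long interphase and then divide to give heart and pharyngeal muscle precursors. Foxf is a forkhead transcription factor known for its role in the migration of these progenitors, and Gata4/5/6, Nkx2-5 and Hand belong to the conserved set of cardiac regulators.

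Cells were sorted by a GFP reporter driven by the Mesp enhancer, which is active in the B7.5 lineage and so labels both its progenitors and its tail muscle cells. In the time series, 10 groups of embryos between 5 and 14 hpf carried the reporter and a pair of expressed sample barcodes each, were otherwise not perturbed, and were fixed and read as 1 pooled library. In the CRISPR experiment, embryos at 12 hpf received Foxf, Gata4/5/6, Foxtun4 or control CRISPR constructs, with Cas9 driven by the same Mesp enhancer, and the 4 conditions were pooled in each of 2 libraries, labelled repeats 1 and 2. Plasmids are inherited unevenly among cells, so a cell of a CRISPR condition need not be mutant, and eggs were pooled from several animals.

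The time series held 2569 cell barcodes, of which 2517 passed the study's limits on the number of genes and 1353 were assigned to a time point. Assigned cells were split by their muscle share, the percentage of a cell's UMIs that came from 3 Myl1 copies (KY.Chr1.2008, KY.Chr1.2010 and KY.Chr1.2011) and from Smyd1. Cells under 1% are called progenitors below and the others tail muscle cells, which names the class by its rule. Of 460 assigned cells at 10 hpf, 238 were progenitors with 2926758 UMIs, and 62 cells had a share between 0.75% and 1.5%, near the limit. There were 24 progenitors at 7 hpf with 292648 UMIs, 137 at 11 hpf with 1868363 UMIs and 201 at 12 and 13 hpf with 2686209 UMIs. Most assigned cells at 7 hpf, 221 with 3840306 UMIs, had a share of 1% or more. They were thus left out of the 7 hpf level that chose the members. The 2 Myl1 copies KY.Chr1.2008 and KY.Chr1.2011 are themselves among the 100 members, so their level in progenitors was limited by the rule on the class. With 1 library there are no replicates, and all 95% intervals of the time series cover counting error alone.

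For summed progenitor markers the label of the class held at 10, 11 and 12 and 13 hpf and failed at 7 hpf. The 7 such markers that were not members summed to 3004, 3462 and 2447 CPM in progenitors. In tail muscle cells they summed to 500.0, 152.3 and 68.7 CPM. At 7 hpf these sums were 355 and 321 CPM. At 10 hpf Hand2 was at 1816 CPM in progenitors and 246 CPM in tail muscle cells, and Nkx2-5 was at 414 and 52.7 CPM. Meis1 went the other way at 10 hpf, at 122.7 and 141.2 CPM. The ATM marker Acta1, low in both classes, was also higher in progenitors at 10 hpf. The 24 cells at 7 hpf had 0 UMIs of Gata5 and of Hand1, which allows a level of up to 10.25 CPM. Both genes were also low in tail muscle cells at 7 hpf, at 3.39 and 0.781 CPM. Nkx2-5, Depdc1b and Meis1 were higher in the 24 cells, at 47.8, 120 and 164 CPM against 4.95, 45.8 and 117 CPM. Hand2, Foxf and Foxtun4 were lower, at 20.5, 51.3 and 3.42 CPM against 144, 70.6 and 4.69 CPM. The 24 cells had 4859 CPM of the epidermal marker KY.Chr1.2380, against 8671 CPM in 218 cells without a sample barcode and 1060 CPM in progenitors at 10 hpf. The lower 7 hpf side of the pattern thus rests on 24 cells with mixed markers, and the part of other cell types in it was not tested. With a muscle share limit of 2% the members summed to 129020 CPM at 7 hpf (73 cells), against 32626 CPM at the limit of 1%, and 63 of the 100 members stayed in the list. With all assigned 7 hpf cells, a setting chosen after the data were seen, 40 stayed.

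Together the 100 members made up 142047 CPM, or 14.20% of all UMIs, in progenitors at 10 hpf. They stood at 32626 CPM at 7 hpf, 80485 CPM at 11 hpf, 40337 CPM at 12 hpf and 43640 CPM at 13 hpf. The 16 contractile genes supplied most of this level, with 17854 CPM at 7 hpf, 82327 CPM at 10 hpf, 38786 CPM at 11 hpf and 20080 CPM at 12 and 13 hpf. In the same order, 15 genes of matrix, adhesion and membrane stood at 4698, 19184, 13124 and 6676 CPM. The 8 genes of calcium handling and excitation stood at 4087, 14700, 11288 and 6456 CPM. Signalling genes (12 members) stood at 1418, 6961, 5555 and 2339 CPM, and transcription regulators (9 members) at 728, 3498, 2214 and 1191 CPM. The other named members comprised 7 enzymes or transporters, 3 RNA-binding proteins, 3 chaperones, 3 genes of replication and genome upkeep and 9 of other kinds, and 15 members had no name. Names are best matches to genes of other species.

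**Figure D1:**
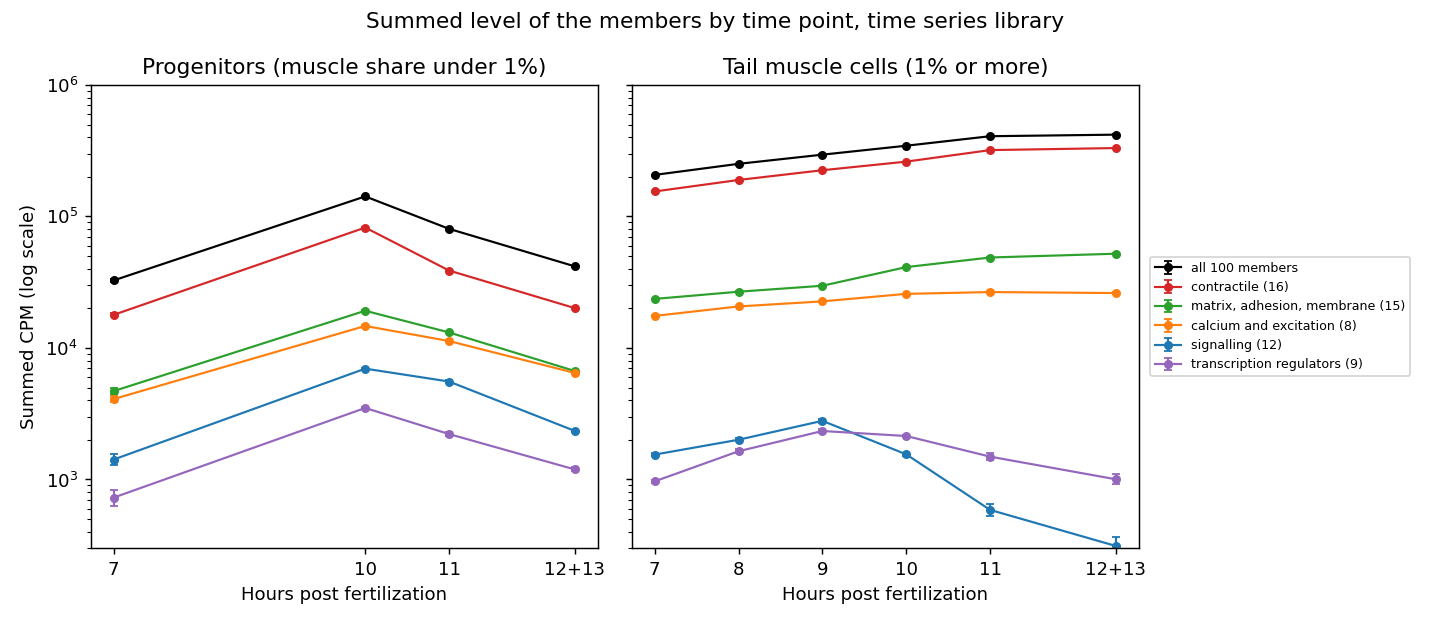
Summed CPM (log scale) of the 100 members and of their 5 largest named role groups against hours post fertilization, in progenitors (left) and tail muscle cells (right) of the time series, for sums of at least 20 cells; error bars are exact Poisson 95% intervals. In progenitors all members together stand at 142047 CPM at 10 hpf and 80485 CPM at 11 hpf, while in tail muscle cells they stand at 344939 CPM at 10 hpf and 407462 CPM at 11 hpf.

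The 11 hpf cells, which the choice of members did not use, lay between the 10 hpf and the later levels for most members. The level at 11 hpf was below that at 10 hpf, with the 95% interval of the ratio under 1, for 92 members (23.1% of the 4370 ranked genes). It was above that at 12 and 13 hpf for 91 members (18.5% of ranked genes), and 83 members met both conditions (7.3% of ranked genes). Read on the same scale, the median ratio of 11 to 10 hpf was 0.62 for the members and 1.04 for all ranked genes. Both comparisons share the 10 hpf or the later cells with the choice of members. The 2 members with a higher level at 11 than at 10 hpf (31% of ranked genes) were Ddr2 (KY.Chr9.1025), a collagen receptor kinase, and Dtx3 (KY.Chr9.307), which was named after its values were seen. Ddr2 was at 51.3 CPM at 7 hpf, 464 CPM at 10 hpf, 545 CPM at 11 hpf and 239 CPM at 12 and 13 hpf, so its highest level was not at 10 hpf. Cryab, a small heat shock protein, had its lowest level at 11 hpf, with 4.282 CPM against 14.89 CPM at 12 and 13 hpf.

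The highest ranking ratio, 7.37, belonged to Vgll2 (KY.Chr12.32, on chromosome 12), a cofactor of TEAD transcription factors known in vertebrate muscle. Its level in progenitors was 17.1 CPM at 7 hpf, 209 CPM at 10 hpf, 118 CPM at 11 hpf and 19.7 CPM at 12 and 13 hpf. In tail muscle cells Vgll2 was at 35.2 CPM at 10 hpf, and in cells without a barcode at 5.05 CPM. Among these time series values the level in progenitors at 10 hpf was the highest. The choice of members used the progenitor levels at 7, 10, 12 and 13 hpf. Foxf (KY.Chr3.1005, on chromosome 3) ranked next with a ratio of 6.23. Foxf was at 51.3, 535, 240 and 77.4 CPM at 7, 10, 11 and 12 and 13 hpf, and at 78.0 CPM in cells without a barcode. The 95% interval of its 7 hpf level, 28.7 to 84.5 CPM from 15 UMIs, held the level of the cells without a barcode.

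Of the other transcription factors in the study's table of such genes, Irx.a (KY.Chr11.343), a homeodomain factor, was at 3.42 CPM at 7 hpf, 98.7 CPM at 10 hpf, 32.1 CPM at 11 hpf and 18.2 CPM at 12 and 13 hpf. Maf.a/b (KY.Chr12.532), a basic leucine zipper factor, was at 10.25, 64.9, 26.2 and 10.05 CPM at the same times. These were low levels outside 10 hpf, and the 7 hpf value of Irx.a was 1 UMI. Foxh.a (KY.Chr9.672), a forkhead factor whose vertebrate relative acts with Smad proteins in Nodal signalling, was more abundant, at 554, 2192, 1552 and 897 CPM. Foxh.a was also at 555 CPM in cells without a barcode and at 1883 CPM in tail muscle cells at 10 hpf. Net/Atoh8 (KY.Chr9.174), a bHLH factor, was at 157 CPM at 10 hpf and at 77.1 and 75.6 CPM at 11 and at 12 and 13 hpf, so almost its whole drop lay between 10 and 11 hpf. For Pitx (KY.Chr6.170), at 120 CPM at 10 hpf and 100.1 CPM at 11 hpf, and Esrr (KY.Chr11.439), at 74.1 and 60.5 CPM, the interval of the ratio of 11 to 10 hpf held 1. Myt1l/Znf223 (KY.Chr1.1536), a zinc finger factor, was at 47.8 CPM at 10 hpf and 8.03 CPM at 11 hpf.

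Contractile genes had the highest levels. The actin copy KY.Chr1.2388 (best match Actg2) was the most abundant of the actin members named here, at 4135 CPM at 7 hpf, 20337 CPM at 10 hpf, 7078 CPM at 11 hpf and 2925 CPM at 12 and 13 hpf. The copies KY.Chr1.1965 and KY.Chr7.868 went from 9888 and 3612 CPM at 10 hpf to 4844 and 1651 CPM at 11 hpf, and KY.Chr8.545 from 1430 to 639 CPM. These actins share best matches among actin genes and their sequences were not compared here. Reads of alike copies could be split among them, so the level of any single copy is uncertain. Tropomyosin Tpm1 (KY.Chr3.1094), which regulates access of myosin to actin, was at 11931 CPM at 10 hpf, 5062 CPM at 11 hpf and 1798 CPM at 12 and 13 hpf. Myl7 (KY.Chr8.903), a myosin light chain, was at 219, 951, 233 and 98.3 CPM at 7, 10, 11 and 12 and 13 hpf. A second Myl7 copy, KY.Chr8.906, was at 379, 2281, 1154 and 953 CPM, so the ratio between these copies was larger after 10 hpf than at 10 hpf.

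Muscle markers that were not members, troponin genes among them, did not share this pattern in full. The 6 ATM markers that were not members (Myf5, Tnnc1, Tnnt2, Tnni1, Ckm and Acta1) summed in progenitors to 615 CPM at 7 hpf, 4326 CPM at 10 hpf, 4380 CPM at 11 hpf and 4335 CPM at 12 and 13 hpf. Over the same cells the 16 contractile members went from 82327 CPM at 10 hpf to 20080 CPM at 12 and 13 hpf. Myf5, a regulator of muscle fate, was at 4.44 CPM in progenitors at 10 hpf and at 264 CPM in tail muscle cells. Tnnc1 was at 884, 1049 and 1138 CPM in progenitors at 10, 11 and 12 and 13 hpf. Tnnt2 rose too, at 1720, 1786 and 1881 CPM. By contrast Tnni1 fell, at 1268, 1088 and 1036 CPM, and Ckm ended lower, at 444, 450 and 278 CPM. The level sum of these markers thus joined genes that rose and genes that fell. The member Tnnc2 (KY.Chr12.40), troponin C, related to Tnnc1, was at 1467, 1078 and 728 CPM. The 7 progenitor markers that were not members summed to 3004, 3462 and 2447 CPM at these times.

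Several members encode proteins of the extracellular matrix or the cell surface, through which migrating cells contact their surroundings. Tnc (KY.Chr9.861), matched to tenascin, was at 58.1 CPM at 7 hpf, 832 CPM at 10 hpf, 639 CPM at 11 hpf and 184 CPM at 12 and 13 hpf. Tll2 (KY.Chr12.746), matched to the tolloid proteases that process collagens and BMP antagonists, was at 30.8, 1009, 927 and 228 CPM. Tll2 was largely a progenitor gene, with 72.4 CPM in tail muscle cells at 10 hpf and 0 UMIs there at 12 and 13 hpf, where the floor of 3 UMIs is 5.57 CPM. The neighbouring caveolin copies KY.Chr5.1031 and KY.Chr5.1030 (Cav1, a coat protein of caveolae) were at 10125 and 933 CPM in progenitors at 10 hpf, and both were higher in tail muscle cells, at 30409 and 2652 CPM. Itga4 (KY.Chr9.501), an integrin subunit, was at 56.0 CPM at 10 hpf and 8.19 CPM at 12 and 13 hpf. Pcdh18 (KY.Chr9.961), a protocadherin, was at 109 and 23.8 CPM, and it was at 61.9 CPM in cells without a barcode.

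Among enzymes and signalling genes, Srd5a1 (KY.Chr11.725), matched to a steroid reductase, had a ratio of 5.42 and stood at 396, 2194, 850 and 282 CPM at 7, 10, 11 and 12 and 13 hpf. Sfrp5 (KY.Chr1.1207), matched to secreted antagonists of Wnt ligands, was at 174 CPM at 10 hpf and 46.2 CPM at 12 and 13 hpf. It was the 1 member with a higher level in cells without a barcode, 182 CPM, than in progenitors at 10 hpf. Ror2 (KY.Chr8.672), matched to a Wnt receptor kinase, was at 383 and 173 CPM at these times, with 208 CPM in cells without a barcode. Cdc45 (KY.Chr3.1632), a part of the replication helicase, was the 1 member on the list of 36 DNA replication genes, and it was at 136, 107 and 46.9 CPM at 10, 11 and 12 and 13 hpf. All 36 genes of that list together stood at 5264, 6026 and 4971 CPM. None of the 14 mitosis genes was a member. Across the list, 98 members were higher in progenitors at 10 hpf than in cells without a barcode, with the interval of the ratio above 1 (59.2% of ranked genes). The 10 hpf level was part of the choice of members, so this count is a description.

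**Figure D2:**
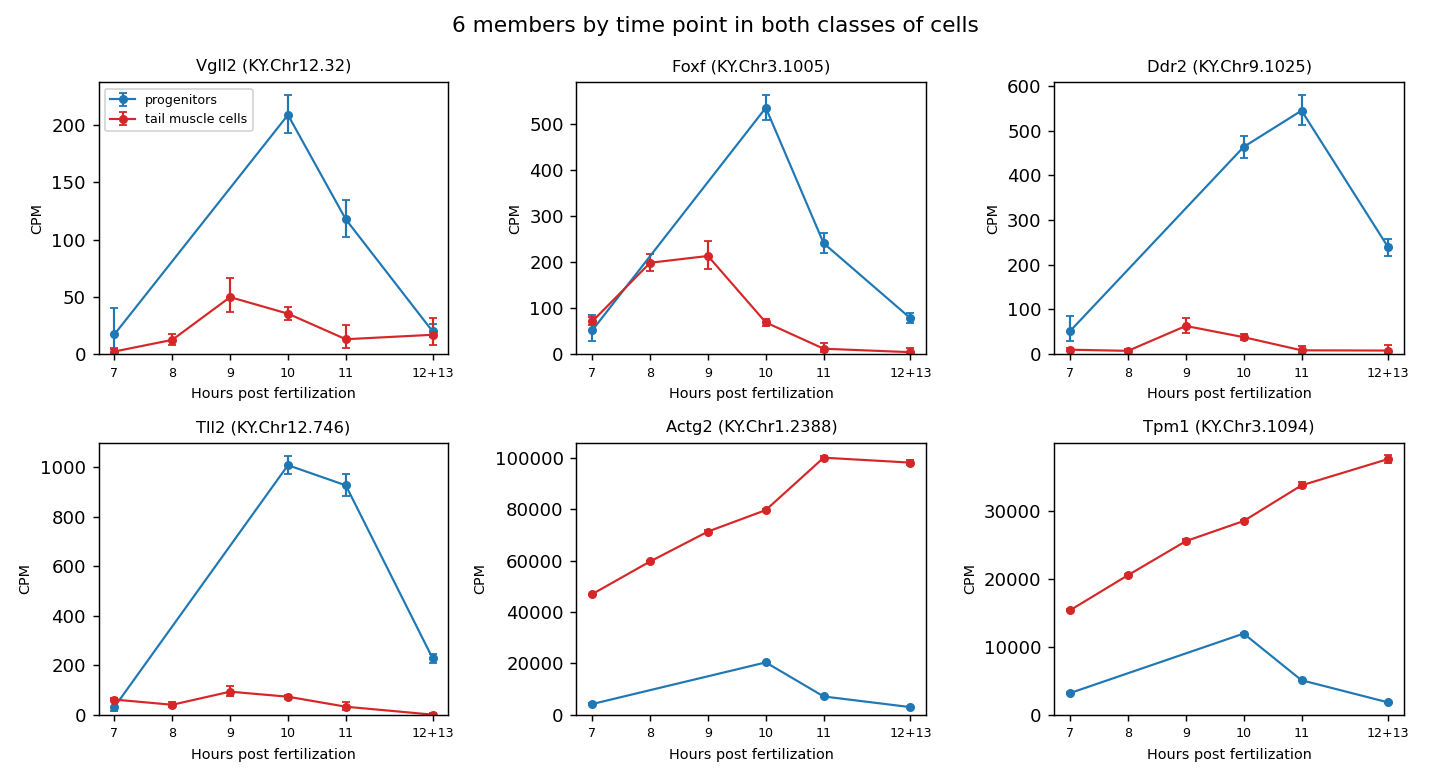
CPM of 6 members (Vgll2, Foxf, Ddr2, Tll2, the actin copy KY.Chr1.2388 and Tpm1) against hours post fertilization in progenitors (blue) and tail muscle cells (red) of the time series, with exact Poisson 95% intervals. Vgll2, Foxf, Ddr2 and Tll2 were higher in progenitors at 10 hpf, whereas the actin copy and Tpm1 were higher in tail muscle cells at every time point shown.

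A few members stood apart in how their transcripts were spread over time or over cells. The ratio of 8 to 11 hpf, which names members but rests on 17 cells at 8 hpf, was largest for Cryab, Myt1l/Znf223, KY.Chr5.832, KY.Chr11.1078 and Asb12 (KY.Chr7.503). Cryab (KY.Chr3.484) was at 112 CPM at 8 hpf, 104 CPM at 10 hpf and 4.282 CPM at 11 hpf. The ratio was smallest for Tll2, KY.Chr1.1370, KY.Chr6.451, the Myl7 copy KY.Chr8.906 and Ddr2. At 10 hpf the 24 progenitors with the most UMIs of a gene held 85.4% of all Asb12 UMIs and 75.4% of those of KY.Chr11.1078, against 23.6% for the actin copy KY.Chr1.2388. Asb12, at 35.2 CPM in progenitors, was at 1988 CPM in tail muscle cells. KY.Chr1.1370 was at 300.3 CPM at 10 hpf and 254 CPM at 11 hpf, at 148 CPM at 12 hpf and at 0.889 CPM at 13 hpf. The 24 highest cells held 70.4% of its 10 hpf UMIs. In the CRISPR libraries it had 0 UMIs in all 8 progenitor sums, which allows up to 0.665 CPM over all of them.

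At the edge of the list the ratios of neighbours hardly differed. The last members were Nsmce4a (KY.Chr1.2124), Fubp3 (KY.Chr9.1009) and Ddr2, each with a ratio of 1.91. The first genes left out were Acer2 (KY.Chr12.326) at 1.90, a second Pcdh18 copy (KY.Chr9.393) at 1.89 and Tprkb (KY.Chr10.1026) at 1.87.

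In tail muscle cells, which the choice of members did not use, the summed list showed no peak at 10 hpf. The members summed to 206961 CPM at 7 hpf, 251209 CPM at 8 hpf, 294987 CPM at 9 hpf, 344939 CPM at 10 hpf, 407462 CPM at 11 hpf and 418695 CPM at 12 and 13 hpf (21 cells). Contractile members followed this course, from 154853 CPM at 7 hpf to 331169 CPM at 12 and 13 hpf. The 12 signalling members did not, at 1545 CPM at 7 hpf, 2792 CPM at 9 hpf, 1552 CPM at 10 hpf and 312 CPM at 12 and 13 hpf. Single members differed from the sum: 39 were higher at 10 hpf than at both 7 and 12 and 13 hpf (5.86% of ranked genes). The actin copy KY.Chr1.2388 was at 46937 CPM at 7 hpf, 79643 CPM at 10 hpf and 98116 CPM at 12 and 13 hpf in tail muscle cells, so it had no late drop there.

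Levels at 10 hpf split the members by class. By CPM there were 39 members higher in tail muscle cells than in progenitors (6.7% of ranked genes), 58 higher in progenitors (89.1%) and 3 whose interval held 1. Without the 2 Myl1 copies, whose side the class rule fixed, 37 were higher in tail muscle cells. CPM are shares of a total, and the median ratio of tail muscle cells to progenitors was 0.55 over all ranked genes. In control CRISPR cells at 12 hpf, scaled by edgeR, 14 of these 58 were called lower in progenitors and 30 higher (56 tested). All 39 of the muscle side were called lower in progenitors there. Within the 10 hpf progenitors, 76 members were higher in the 120 cells with a muscle share of 0.5 to 1% than in the 118 cells under 0.5% (9.771% of ranked genes), and 2 were lower (16.9%), namely Pitx and KY.Chr11.1078. The 2 Myl1 copies that help to define the share are among the 76, which leaves 74 of 98 members without them. Members summed to 176057 CPM in the first of these groups and to 106158 CPM in the other, or to 170882 and 104012 CPM without those copies. The choice of members used the summed level of these 10 hpf progenitors, so these counts and sums are a description. Markers of other cells moved beside these sums. The 8 markers of cells outside the lineage summed to 391 CPM in the cells of 0.5 to 1% and to 2440 CPM in those under 0.5%, and the 6 ATM markers that were not members to 5309 and 3288 CPM. The part of these cells in the difference was not tested. The median muscle share of progenitors was itself highest at 10 hpf, at 0.501% against 0.0148% at 7 hpf, 0.171% at 11 hpf and 0.140% at 12 and 13 hpf, and its part in the 10 hpf levels was not tested. With cells under 0.5% alone, 78 of the 100 members stayed in the list and the sums were 21078, 106158, 77464 and 40498 CPM at 7, 10, 11 and 12 and 13 hpf. Vgll2 was at 179 CPM and Foxf at 450.1 CPM in the cells under 0.5%, against 238 and 615 CPM in those of 0.5 to 1%.

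**Figure D3:**
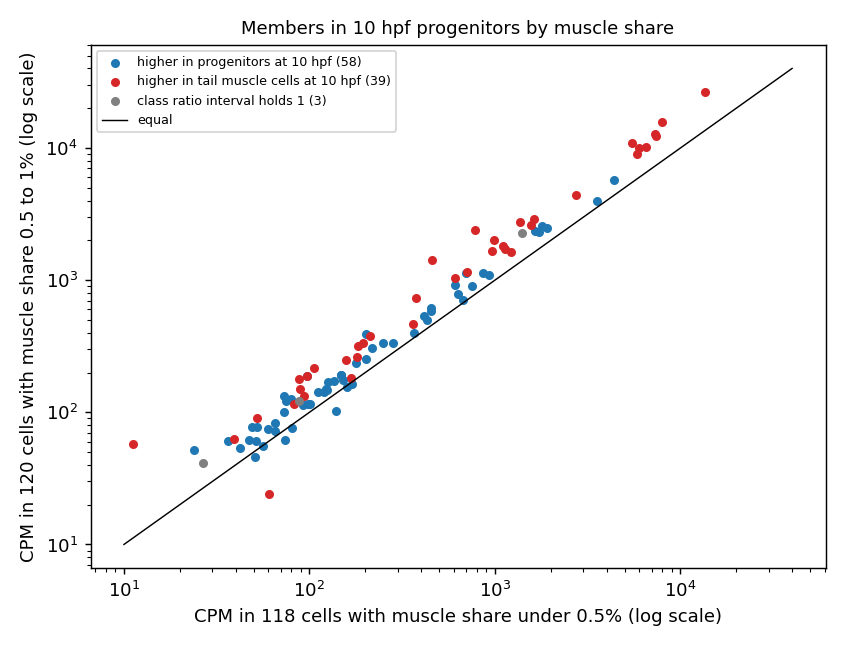
CPM of each of the 100 members at 10 hpf in progenitors with a muscle share of 0.5 to 1% (120 cells, vertical axis) against those under 0.5% (118 cells, horizontal axis), both on log scales, colored by the class in which the gene was higher at 10 hpf; the line marks equal levels. With intervals of the ratio that leave out 1, 76 members were higher in the cells of the larger share and 2 were lower. The choice of members used these cells, so the counts are a description.

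The CRISPR libraries asked which members depend on Foxf, Gata4/5/6 or Foxtun4 at 12 hpf. Of 869 cell barcodes 624 were assigned to a condition, and 21 of these lay near the class limit. For each condition, the UMIs of each class were summed within a repeat, which gave 6 to 73 progenitors (91315 to 1249960 UMIs) and 10 to 96 tail muscle cells per sum. The targeted genes were lower under their own labels. Foxf was at 540.1 and 440.0 CPM in control progenitors of repeats 1 and 2, and at 66.4 and 144 CPM in Foxf CRISPR. Gata5 was at 214 and 229.6 CPM in control and at 88.1 and 66.0 CPM in Gata4/5/6 CRISPR, and Foxtun4 (KY.Chr5.382) at 305 and 280.0 CPM in control and 110 and 68.4 CPM in Foxtun4 CRISPR. The barcodes of Foxtun4 CRISPR carried another gene name (FoxG) in the key from which they were read and were taken as Foxtun4 by elimination. Reads from a cut gene can still be counted, so these levels need not equal the loss of protein. The repeats shared 7 cell barcodes, and the copies in repeat 2 had 540 to 4448 UMIs against 40831 to 330966 UMIs in repeat 1.

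In Foxf CRISPR progenitors 7 members were lower and 3 higher than in control, out of 98 tested. Among all 6991 tested genes 1.230% were called lower and 0.401% higher. A call needed a Benjamini-Hochberg adjusted p under 0.05 from edgeR's quasi-likelihood test and a log2 fold change of more than 0.5 in size. The 7 lower members were Vgll2, Foxf, Ddr2, KY.Chr6.451, Arhgef17, Tll2 and Adgrl3, and the 3 higher were Pcdh18 (KY.Chr9.961), Dnajc30 and Zcchc24. By CPM all 10 were higher in progenitors than in tail muscle cells at 10 hpf, as were 58 of the 100 members and 89.1% of ranked genes. All 10 moved the same way in both repeats, but the calls were made from these same sums and so favour such genes. At an unadjusted p under 0.05 there were 51 members (9.93% of tested genes). The number of calls depended on single sums, among all genes as among members. Without control repeat 2 there were 2 members and 20 genes called, and without control repeat 1 there were 5 and 47, against 10 and 114 with all sums. Without Foxf repeat 2 there were 18 members (6 lower and 12 higher) and 279 genes. The balance of lower to higher members also turned with DESeq2 (6 and 8), without the filter on low counts (13 and 20) and with 1 barcode of the pair (2 and 5). Without the cell barcodes that the repeats shared, an alternative added after the data were seen, 8 members were lower and 12 higher, among them the 10, with 186 genes called. It took the Foxf CRISPR progenitors from 17 to 16 cells in repeat 1 (271138 to 228258 UMIs) and from 48 to 47 in repeat 2. Without the fainter copies of these barcodes alone, also added after the data were seen, 10 members and 114 genes were called.

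Vgll2 was at 262 and 249 CPM in control progenitors of repeats 1 and 2, and at 66.4 and 42.4 CPM in Foxf CRISPR. The groups did not overlap, and the log2 fold change was −2.26 (SE 0.25, edgeR adjusted p = 0.0032). Vgll2 kept this call under all 13 alternatives, with log2 fold changes of −2.56 to −1.84. Its levels in Gata4/5/6 CRISPR (283 and 316 CPM) and Foxtun4 CRISPR (263 and 211 CPM) were near control. Foxf itself had a log2 fold change of −2.06 (SE 0.29, edgeR adjusted p = 0.0067), which is a check of the label.

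Ddr2 was at 599 and 590 CPM in control progenitors and at 111 and 194 CPM in Foxf CRISPR, a log2 fold change of −1.84 (SE 0.27, edgeR adjusted p = 0.0079). Its levels in Gata4/5/6 CRISPR were 555 and 759 CPM, and in Foxtun4 CRISPR 1018 and 657 CPM. The unnamed member KY.Chr6.451 was at 220.0 and 343 CPM in control and at 92.2 and 93.4 CPM in Foxf CRISPR (log2 fold change −1.54). Arhgef17 (KY.Chr2.892) was at 297 and 262 CPM in control and 99.6 and 90.9 CPM in Foxf CRISPR (−1.50). In each of these 3 genes both Foxf CRISPR values lay below both control values.

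Tll2 was at 1552 and 1772 CPM in control progenitors and at 568 and 968 CPM in Foxf CRISPR, a log2 fold change of −1.04 (SE 0.20, edgeR adjusted p = 0.032). Adgrl3 (KY.Chr5.854), matched to the latrophilin adhesion receptors, was at 422 and 418 CPM in control and 225 and 232 CPM in Foxf CRISPR, a log2 fold change of −0.81. Its call was the least stable of the 10 and was kept in 5 of 13 alternatives, while those of Tll2, Arhgef17 and Dnajc30 were kept in 8. In the other direction, Pcdh18 was at 77.4 and 57.6 CPM in control and at 192 and 318 CPM in Foxf CRISPR (log2 fold change 2.02, SE 0.29, edgeR adjusted p = 0.0068). Dnajc30 (KY.Chr8.795), a J-domain protein, was at 27.3 and 31.2 CPM against 70.1 and 82.2 CPM (1.44). Its call was lost without either control repeat, without Foxf repeat 2 and with DESeq2, at adjusted p-values of 0.12 to 0.66 (edgeR, and DESeq2 for the highest). Zcchc24 (KY.Chr14.240), a zinc finger protein, was at 901 and 934 CPM against 1438 and 1929 CPM (0.94).

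**Figure D4:**
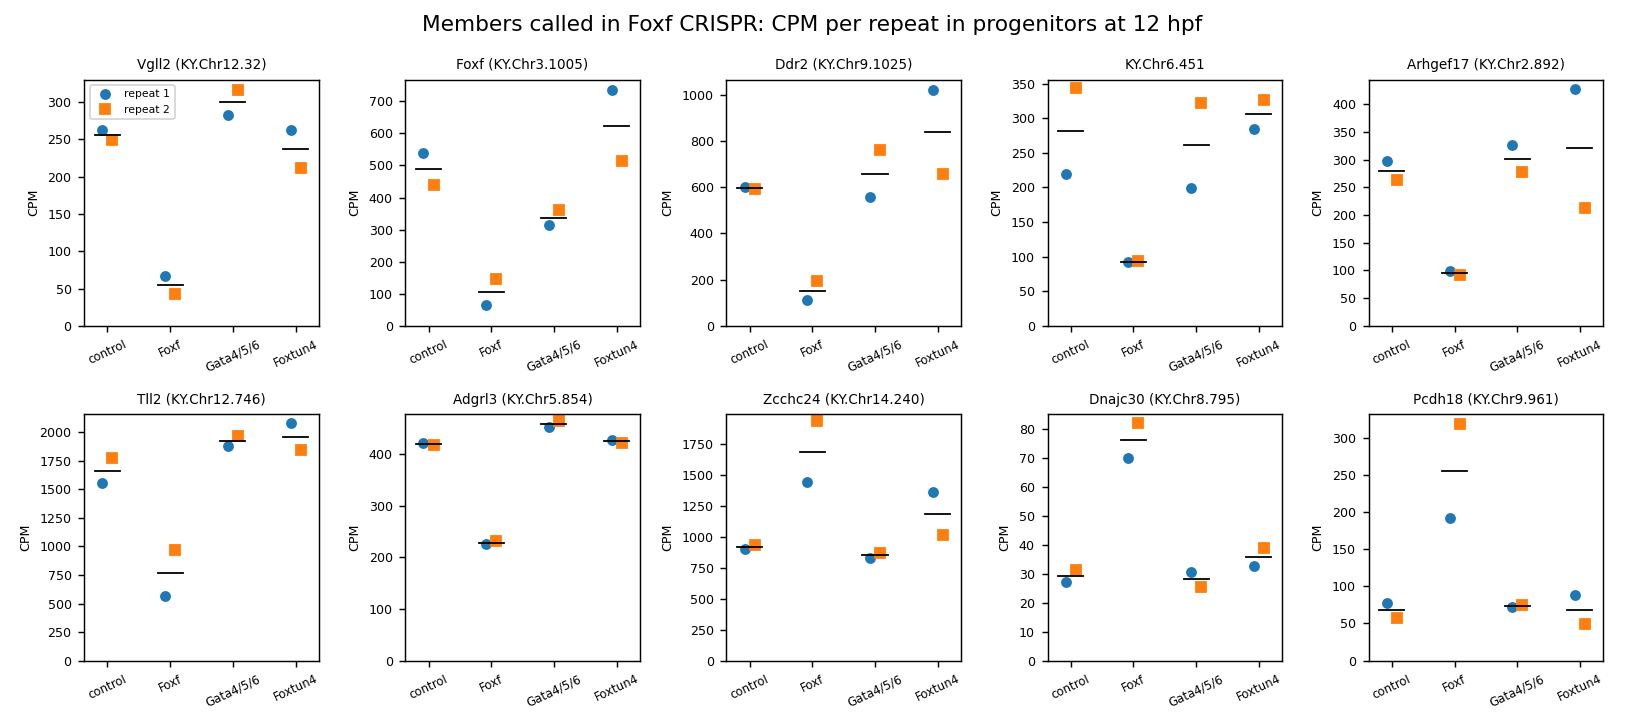
CPM per repeat (circle, repeat 1; square, repeat 2; line, mean of both) in progenitors at 12 hpf for the 10 members called in Foxf CRISPR, in control, Foxf, Gata4/5/6 and Foxtun4 CRISPR. In each panel both Foxf CRISPR values lie on one side of both control values, as for Vgll2 with 66.4 and 42.4 against 262 and 249 CPM. The calls were made from these same sums.

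Of the 98 tested members, 75 had a fitted change above 0 in Foxf CRISPR progenitors (52.1% of tested genes). The median log2 fold change over the 98 tested members was 0.37, against 0.02 over all tested genes. For the 39 members that were higher in tail muscle cells in the time series, a separate library, the fitted change was above 0 in all 39, with a median of 0.73 and a range of 0.15 to 1.857, and 33 were above control in both repeats (23.3% of tested genes). Of the 253 tested ranked genes that were also higher in tail muscle cells but were not members, 190 were above 0 (median 0.26) and 117 were above control in both repeats. Other genes higher in tail muscle cells thus mostly had fitted changes above 0 too. edgeR called 0 of the 39 (24 at an unadjusted p under 0.05), and DESeq2 called 3 of them higher. The 56 tested members that were higher in progenitors had a median of 0.12, with 34 above and 22 below 0. All 16 contractile members had a fitted change above 0 (median 0.75). Their summed level was 33231 and 22931 CPM in control and 43848 and 41784 CPM in Foxf CRISPR. The actin copy KY.Chr1.2388 was at 4186 and 2891 CPM in control and 5934 and 6147 CPM in Foxf CRISPR, with a log2 fold change of 0.84 (SE 0.20) that missed the threshold (edgeR adjusted p = 0.087).

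Muscle markers moved beside these values. The 6 ATM markers that were not members summed to 4928 and 3647 CPM in control progenitors and 6576 and 4797 CPM in Foxf CRISPR, so the repeats overlapped. Median muscle share was 0.153% and 0.119% in control and 0.273% in both repeats of Foxf CRISPR, and its part in the upward lean was not tested. In tail muscle cells Foxf CRISPR left 0 of 88 tested members and 0 of 6393 tested genes called by edgeR. At an unadjusted p under 0.05 there were 8 members (3.77% of tested genes), and DESeq2 was run for progenitors only. The median change of the members in tail muscle cells was 0.01 (log2). A test of the difference between the Foxf effects in both classes called 0 of 98 members and 0 of 7685 genes (30 members at an unadjusted p under 0.05, with 6.66% of genes), so a difference between the classes was not shown for any single member.

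**Figure D5:**
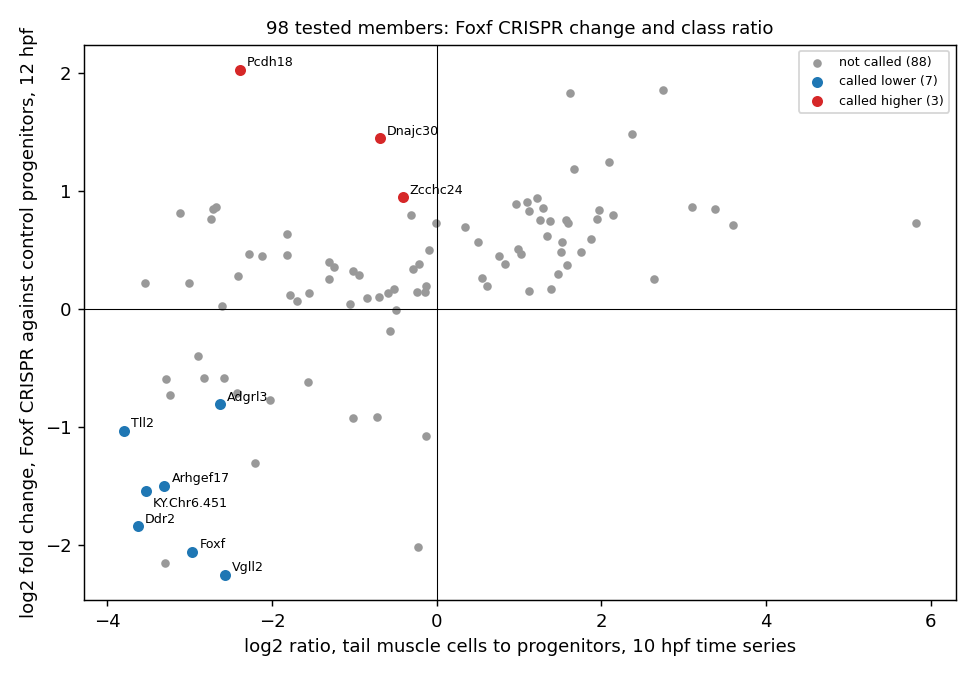
Log2 fold change of Foxf CRISPR against control progenitors at 12 hpf (vertical axis) against the log2 ratio of tail muscle cells to progenitors at 10 hpf in the time series (horizontal axis) for the 98 tested members; colored points are the 7 called lower and 3 called higher. All 39 members higher in tail muscle cells at 10 hpf lie above 0 on the vertical axis. All 10 calls lie on the side of genes higher in progenitors by CPM at 10 hpf, which holds 89.1% of ranked genes.

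For the transcription factors besides Foxf no call was made in Foxf CRISPR. Irx.a had a log2 fold change of 0.86 (SE 0.26, edgeR adjusted p = 0.21) and Maf.a/b of 0.85 (SE 0.33, edgeR adjusted p = 0.38). Foxh.a was at 936 and 810 CPM in control and 1084 and 1082 CPM in Foxf CRISPR, a log2 fold change of 0.38. Net/Atoh8 was at 168 and 155 CPM in control and 107 and 95.9 CPM in Foxf CRISPR (−0.62, edgeR adjusted p = 0.26). Pitx, Esrr and Myt1l/Znf223 had log2 fold changes of 0.25, 0.12 and −0.73, the last from levels of at most 13.6 CPM in control and Foxf CRISPR. Of the Wnt pathway genes, Sfrp5 was at 191 and 187 CPM in control and 373 and 300.2 CPM in Foxf CRISPR (0.89, edgeR adjusted p = 0.082), and Ror2 had a change of 0.45.

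The wider lists to which some members belong held calls of each direction. Among all 6991 tested genes 1.230% were called lower and 0.401% higher. The lists were chosen with earlier results of these data known, so their counts are a description. Of 33 tested genes of Wnt, BMP, FGF and Hedgehog signalling, 4 were lower and 3 higher in Foxf CRISPR, none of them Sfrp5 or Ror2. Of 28 tested genes of adhesion, matrix and the migration cytoskeleton 4 were lower and 2 higher, with Ddr2 and Pcdh18 among them, while the Cav1 copies and Itga4 were not called. The median log2 fold change was 0.10 for the first list and 0.06 for the other. Of the 36 tested replication genes 0 were called by edgeR or DESeq2 (3 at an unadjusted p under 0.05 in edgeR), and Cdc45 had a change of 0.07 (SE 0.27). Of 8 TVC markers 4 were lower, Foxf among them.

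Gata4/5/6 CRISPR and Foxtun4 CRISPR left no member called in progenitors. For Gata4/5/6 CRISPR edgeR called 0 of 98 members (6 at an unadjusted p under 0.05, with 3.89% of genes, and 0 by DESeq2), with 3 of all 6991 genes lower, or 0.0429%. For Foxtun4 CRISPR edgeR called 0 of 98 members and 0 of 6991 genes, with 11 members at an unadjusted p under 0.05 (2.96% of genes) and 0 by DESeq2. The median log2 fold changes of the members were 0.19 and 0.16. Foxf was at 314 and 361 CPM in Gata4/5/6 CRISPR and at 734 and 514 CPM in Foxtun4 CRISPR, with log2 fold changes of −0.53 (SE 0.27) and 0.34 (SE 0.27) that were not called. The Foxtun4 sum of repeat 1 held 6 cells, which limits this comparison.

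Control progenitors differed from control tail muscle cells in most members. In the CRISPR libraries 56 members were lower in progenitors (19.5% of 7685 genes tested) and 30 higher (19.0%) by edgeR, with 98 tested. Ddr2 had the log2 difference 4.59 (SE 0.38), Tll2 4.49 (SE 0.43), Foxf 4.18 (SE 0.48) and Vgll2 2.94 (SE 0.33), all higher in progenitors. The 3 chaperone members, Dnajc30 among them, all had a log2 difference below 0, of which the highest was −1.21. In the time series at 10 hpf Dnajc30 had been higher in progenitors by CPM. That ratio was not scaled by edgeR, so the 2 comparisons are on unlike scales. The 2 Myl1 copies among the 56 help to define the class, and 54 remain without them. All 14 other contractile members were lower in progenitors, with a median log2 difference of −4.29. This comparison and the Foxf comparison share the control progenitors.

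Control CRISPR progenitors at 12 hpf carried more of these transcripts than time series progenitors of the same age. Members summed to 78888 and 65446 CPM in control CRISPR repeats 1 and 2, against 40337 CPM at 12 hpf, 80485 CPM at 11 hpf and 142047 CPM at 10 hpf in the time series. Both repeats were above the time series at 12 hpf for 79 members (51.1% of ranked genes) and below it for 11 (38.3%). Against the 10 hpf level, both were above for 31 members (53.1%) and below for 59 (36.1%). The choice of members used the 10 hpf and the 12 and 13 hpf levels of this time series, so these counts are a description of where the control sums lay. Vgll2, at 262 and 249 CPM in control CRISPR, was at 25.6 CPM in the time series at 12 hpf and 209 CPM at 10 hpf. Foxf, at 540.1 and 440.0 CPM, was at 92.2 and 535 CPM at these times. The libraries were made in separate experiments, so stage and library cannot be told apart.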

How the data were processed

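UMI counts per gene and cell were deposited by the authors, with no normalization; they came from Cell Ranger 3.0.1, run against KY2019 gene models to which the sample barcodes were added as extra genes. In the time series (39762547 gene UMIs), cells between the 1st and 99th percentile of genes (428.68 to 6059.96) were used, in the CRISPR libraries (5299026 and 14905325 gene UMIs) all cell barcodes. A cell was assigned when both barcodes of a pair were seen and at least 75% of the cell's mapped barcode UMIs belonged to it. The map was read from colour keys of the study's figures, where the pair taken as Foxtun4 by elimination was named FoxG. Cells with mixed pairs were left out, and no doublet caller was run.

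CPM were computed from sums over cells (Python 3.11.15, scipy 1.17.1). Intervals of CPM are exact Poisson and those of ratios conditional binomial, at 95%, and no direction was read from under 20 cells. CRISPR sums of at least 5 cells were analysed in R 4.3.3 by the quasi-likelihood test of edgeR 4.0.16, with TMM scaling, its filterByExpr filter and all 4 conditions in 1 fit, and p was adjusted over all tested genes. The SE was taken as log2 fold change over the root of F. DESeq2 1.42.0 and classes by Leiden clusters (scanpy 1.11.5, igraph 0.11.9) were alternatives. Nothing states that the repeats are separate cultures, so p-values measure only the spread between these libraries. Across genes, deviations of the repeats correlated by −0.323 to 0.137 between conditions in progenitors and −0.235 to 0.422 in tail muscle cells. The fit had no block for the repeat because the study's methods name none, and a fit with such a block was an alternative.

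Members and lists were chosen with earlier results of these data known, and the role groups and the split by class after values were seen. Named are the 10 largest ratios, members in the study's transcription factor table or on the lists, CRISPR calls, the 5 largest and smallest ratios of 8 to 11 hpf and the 3 genes on each side of the rank limit. The ranking, the barcode assignment, the ratio intervals and the edgeR and DESeq2 fits were tested on simulated data.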

Additional observations from a re-analysis of the deposited data

How the results depend on the processing

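No fitted change of a called member reversed. The 10 calls for Foxf CRISPR in progenitors (7 lower, 3 higher; 114 of all genes) became 8 with a replicate block (Adgrl3 and Dnajc30 not called), 14 with DESeq2 (6 lower, 8 higher; 93 genes), 33 without the filter on low counts (13 and 20; 408 genes) and 7 with 1 barcode of the pair (2 and 5; 82 genes). They became 20 (8 and 12; 186 genes) without cell barcodes shared by the repeats (chosen after the data were seen) and ranged from 2 to 18 when single sums were left out, with 6 lower and 12 higher without Foxf replicate 2. Higher calls thus outnumbered lower ones in 5 alternatives. The cause was not tested. Without the fainter copies of the shared barcodes alone, also chosen after the data were seen, 10 members and 114 genes were called. Without the filter Gata4/5/6 and Foxtun4 CRISPR had 1 member called each. The block raised the genes called in Gata4/5/6 CRISPR from 3 to 6 and moved no count of members by over 1.5 times.

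The list held 64 of its members with 1 barcode of the pair, 66 with at least 10 UMIs in the pair and 63 with a muscle share under 2%. It held 29 when 10 hpf was set against 12 and 13 hpf alone and 40 with all assigned 7 hpf cells, both chosen after the data were seen. Summed CPM at 7 hpf was 26637 with all cell barcodes, 10926 with 1 barcode, 94522 with at least 10 UMIs (5 cells), 21078 under 0.5% and 129020 under 2%. At 10 hpf it was 91263 with 1 barcode, 158319 with at least 10 UMIs, 106158 under 0.5% and 157449 under 2%. At 11 hpf it was 72404 with 1 barcode and 77464 under 0.5%, and at 12 and 13 hpf 39320 and 40498. Small sums limit the depth, as few as 6 progenitors.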
